A study of Mus musculus with 10 samples.

Results

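Regions of chromatin with an ATAC-seq peak in both control libraries and in neither Piezo1 knockout library of C3H10 T1/2 cells were examined. C3H10 T1/2 is a mouse embryo line of fibroblast-like mesenchymal cells that can be driven towards bone, cartilage or fat. Chromatin accessibility was measured by ATAC-seq, in which the Tn5 transposase inserts adapters into open DNA, in 2 libraries of control cells labelled GFP and 2 libraries of cells in which Piezo1, the gene of a mechanically gated cation channel, had been knocked out by CRISPR/Cas9. Each reaction used nuclei from 50000 cells, and neither group was strained. The labels do not say whether the knockout cells are 1 clone or a pool, which vector the GFP cells carry, or whether replicates are separate cultures, and the peak lists hold no measure of Piezo1 mRNA or protein. RNA-seq was measured in other cultures of the line, 3 static libraries and 3 libraries under cyclic strain of 0.5 Hz and 10% elongation for 8 h per day over 3 days after 48 h of culture. Neither RNA-seq group carries the knockout or is labelled with GFP, and the RNA-seq labels give the mouse strain as C57BL/6.

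Members were chosen from the peak calls themselves. Peaks of the 4 libraries that overlapped by at least 1 bp were merged, and a merged region was kept when both control libraries and neither knockout library had a peak in it, on autosomes other than chromosomes 1, 8, 15 and 16. Of the 29289 merged regions, 22474 lay on the 15 chromosomes used, and 2249 of those, or 10.0%, were control-only. As the peak calls set this share, it is a description, and nothing is read from it. Control replicate 1 had 15978 peaks and control replicate 2 had 26652, whereas the knockout lists were 15980 (replicate 1) and 13610 (replicate 2) peaks long. The list of control replicate 2 is the longest and the read depth behind each list is unknown, so a region without a peak in a list is a region not called there, which differs from a region shown to be closed. When every list was reduced to its 13610 highest-ranked peaks, 1143 control-only and 752 knockout-only regions were found, against 2249 and 345 in the full lists, and 1018 of the 2249 (45.3%) overlapped a control-only region of the reduced lists. Part of the excess of control-only over knockout-only regions therefore moved with the number of peaks listed.

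Open chromatin is found at gene starts, where it holds the promoter, and at distal elements such as enhancers, which can act on genes far away. In mesenchymal cells the promoters of widely expressed genes tend to be open in most cell types, whereas distal elements differ more between cell states and are bound by factors such as AP-1, TEAD, RUNX and NFI proteins. PIEZO1 opens when the membrane is stretched and lets calcium enter, which is known to act on gene regulation in bone-forming and connective tissue cells through calcineurin, YAP/TAZ and other routes.

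Few control-only regions lay at a promoter, and the sequences of 8 that did are shown, the strongest of the named regions that cover at least 150 bases of a window of 300 around the gene start. The regions cover 151 to 300 of those bases. They are printed from RefSeq on GRCm38.p6, the build of the peak lists (mm10), 5′ to 3′ on the strand of the gene. Capitals mark matches on either strand to short motifs of AP-1, TEAD, RUNX, ETS, SP/KLF, NFI and SRF factors, which are spelled out below. Each region overlapped the start or, for D6Wsu163e, lay 4 bases from it.
Rnf6 (chr5:146220902-146221151, minus strand): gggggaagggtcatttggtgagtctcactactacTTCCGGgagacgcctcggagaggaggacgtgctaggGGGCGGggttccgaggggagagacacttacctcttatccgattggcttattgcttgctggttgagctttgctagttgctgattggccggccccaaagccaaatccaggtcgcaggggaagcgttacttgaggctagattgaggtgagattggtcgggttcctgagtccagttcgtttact
D6Wsu163e (chr6:126939716-126939965, plus strand): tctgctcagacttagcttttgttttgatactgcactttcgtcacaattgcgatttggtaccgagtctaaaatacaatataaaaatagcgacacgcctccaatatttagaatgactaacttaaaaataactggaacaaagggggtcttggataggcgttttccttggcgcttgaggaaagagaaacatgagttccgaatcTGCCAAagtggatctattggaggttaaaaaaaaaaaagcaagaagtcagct
Adar (chr3:89714988-89715237, plus strand): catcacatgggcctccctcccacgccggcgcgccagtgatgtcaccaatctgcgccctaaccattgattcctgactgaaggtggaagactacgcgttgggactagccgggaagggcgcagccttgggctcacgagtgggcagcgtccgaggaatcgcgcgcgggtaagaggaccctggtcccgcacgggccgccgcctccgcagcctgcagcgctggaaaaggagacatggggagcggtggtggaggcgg
Limch1 (chr5:66968178-66968427, plus strand): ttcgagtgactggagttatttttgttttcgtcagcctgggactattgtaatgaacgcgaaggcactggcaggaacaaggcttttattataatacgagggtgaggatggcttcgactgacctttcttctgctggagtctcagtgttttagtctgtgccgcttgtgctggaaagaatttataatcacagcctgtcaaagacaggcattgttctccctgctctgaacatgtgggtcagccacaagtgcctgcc
Rasgef1b (chr5:99252928-99253177, minus strand): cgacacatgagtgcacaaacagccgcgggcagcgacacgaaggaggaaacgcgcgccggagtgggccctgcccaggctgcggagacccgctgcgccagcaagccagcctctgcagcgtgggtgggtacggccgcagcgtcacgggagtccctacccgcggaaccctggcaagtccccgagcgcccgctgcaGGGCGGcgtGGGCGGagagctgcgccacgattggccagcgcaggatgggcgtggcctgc
Spdya (chr17:71551811-71552060, plus strand): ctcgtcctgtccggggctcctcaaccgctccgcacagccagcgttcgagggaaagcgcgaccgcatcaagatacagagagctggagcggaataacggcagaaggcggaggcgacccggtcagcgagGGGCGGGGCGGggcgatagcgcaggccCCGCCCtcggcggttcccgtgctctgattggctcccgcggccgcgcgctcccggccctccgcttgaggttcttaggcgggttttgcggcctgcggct
Gpd1l (chr9:114933988-114934237, minus strand): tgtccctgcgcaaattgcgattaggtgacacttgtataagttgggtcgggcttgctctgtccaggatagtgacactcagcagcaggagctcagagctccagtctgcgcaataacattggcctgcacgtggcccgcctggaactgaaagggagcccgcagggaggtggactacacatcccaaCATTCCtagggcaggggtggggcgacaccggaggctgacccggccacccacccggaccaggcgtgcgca
Ube2cbp (chr9:86464917-86465166, minus strand): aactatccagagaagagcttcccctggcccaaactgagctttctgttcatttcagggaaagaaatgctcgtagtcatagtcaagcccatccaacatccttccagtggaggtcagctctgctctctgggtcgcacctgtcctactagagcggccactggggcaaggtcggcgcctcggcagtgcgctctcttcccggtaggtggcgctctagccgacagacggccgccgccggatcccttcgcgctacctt
Rnf6 encodes an E3 ubiquitin ligase, Adar an enzyme that edits adenosine in double-stranded RNA, Limch1 an actin-associated protein, Rasgef1b an exchange factor for Ras family GTPases, Spdya an activator of cyclin-dependent kinases and Gpd1l a protein related to glycerol-3-phosphate dehydrogenase. The GC content of these 250 bases ran from 38.4% at D6Wsu163e to 72.4% at Rasgef1b. A match to an SP/KLF motif was found at Rnf6, Rasgef1b and Spdya, to an ETS motif at Rnf6, to a TEAD motif at Gpd1l and to an NFI half-site at D6Wsu163e, and no match was found at Adar, Limch1 or Ube2cbp.

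Control-only regions were narrower and weaker than the regions present in all 4 libraries. The fold enrichment, which is the authors' ratio of the peak's signal to its local background, had a median of 4.75 in control replicate 1 (range 2.76 to 9.80) and 5.33 in control replicate 2 (range 2.93 to 12). In the 6123 regions present in all 4 libraries the corresponding medians were 5.71 and 6.99. Over all peaks listed for control replicates 1 and 2, on every chromosome, they were 5.05 and 5.26. The merged width had a median of 428 bases (204 to 1199) against 749 bases for the regions in all 4 libraries. It was 352 bases for all merged regions and 333 bases for knockout-only regions. A region merged from peaks of more libraries can only be as wide or wider. The summits of the control libraries lay a median of 62 bases apart, and 1498 of the 2249 (66.6%) were within 100 bases of each other. Control replicate 2 had the higher fold in 72.3% of control-only regions and in 84.4% of the regions in all 4 libraries. At the edge of the rule, the region with the lowest −log10 q of a control peak was one near Slc41a3, at 2.31 in control replicate 1 and 8.39 in control replicate 2. Just outside it, a region near Trib2 had a single knockout peak with a fold of 3.44 and a −log10 q of 2.47.

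The share of control-only regions fell with the strength of the control peaks. Ranked by the lower of the control folds, 418 of 937 regions below a fold of 4 that were present in both control libraries were control-only (44.6%), against 34.3% of 3260 between 4 and 5. It was 18.6% of 2994 regions between 5 and 6, 7.65% of 1581 between 6 and 7, and 3.39% of 767 between 7 and 8. Of 377 regions between 8 and 10 only 9 were control-only (2.39%), and of 28 at 10 or more there was none. Regions in both control libraries and 1 knockout library, 1572 in all, changed with strength in the same direction, from 25.5% to 0.

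**Figure D1:**
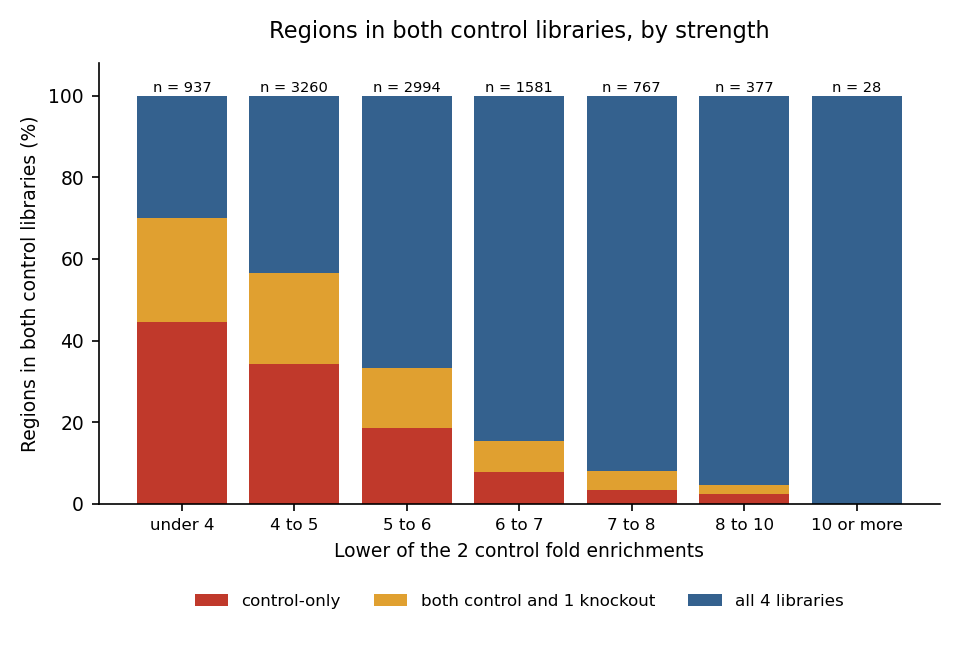
Stacked bars give, for each range of the lower of the 2 control fold enrichments (x axis), the percentage of the regions found in both control libraries (y axis) that were control-only, present in 1 knockout library or present in all 4 libraries, with the number of regions above each bar. The control-only share runs from 44.6% in the weakest range to 0 in the strongest.

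Control-only regions lay mainly away from gene starts. Within 1 kb of the start of a protein-coding gene lay 429 of them, or 19.1% (Wilson 95% interval 17.5% to 20.8%, counting error only), against 63.8% of the regions in all 4 libraries, 39.5% of those in both control libraries and 1 knockout library, and 38.9% of all merged regions. Of the 345 knockout-only regions 74, or 21.4%, lay this close. Where no start was listed for a gene, either of its ends stood in for the start. The median distance was 25.3 kb for control-only regions and 0 kb, an overlap, for regions in all 4 libraries. More than 50 kb from any start lay 783 control-only regions (34.8%) against 12% of the regions in all 4 libraries. Inside the body of a protein-coding gene lay 1232 (54.8%), and of the 1820 that were over 1 kb from a start 878 were in a gene and 942 between genes. Seen from the other side, 429 of the 4955 regions near a start that both control libraries shared were control-only (8.66%), against 1820 of the 4989 over 1 kb away (36.5%). Regions are not replicates of a condition, so no test between the classes was made.

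**Figure D2:**
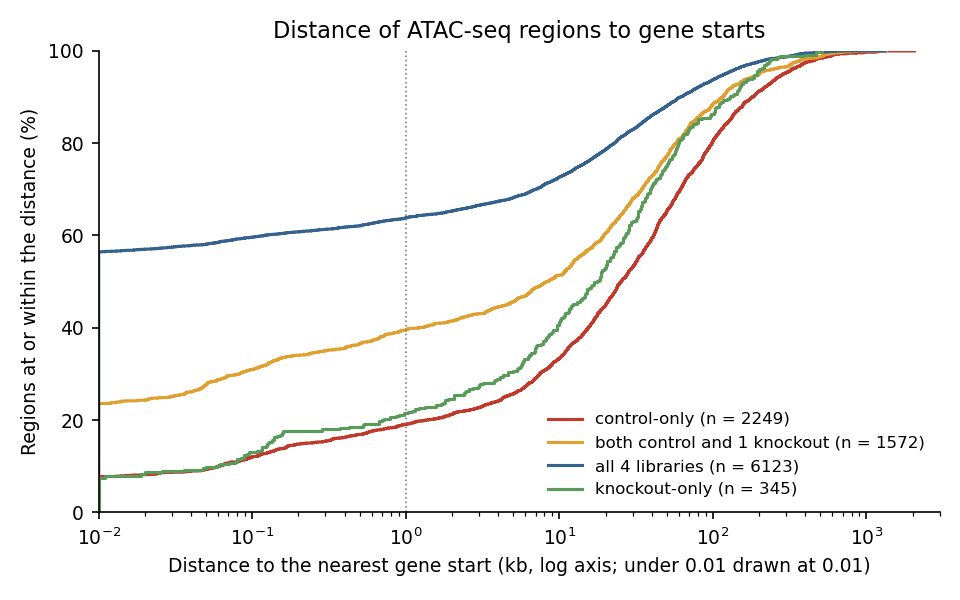
Cumulative percentage of regions (y axis) at or within a given distance of the nearest gene start (x axis, kb, log axis) for 4 classes of regions, with a dotted line at 1 kb. At 1 kb the control-only line stands at 19.1%, the knockout-only line at 21.4% and the line of regions in all 4 libraries at 63.8%.

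Within each range of strength that held control-only regions, a smaller share of them lay near a start. Below a lower control fold of 4, 29.7% of the control-only regions and 52.9% of those in all 4 libraries lay within 1 kb of a start, the narrowest gap of the ranges. Among regions with a lower control fold between 4 and 5, 19.8% of the control-only regions and 56.9% of those in all 4 libraries lay within 1 kb of a start. Between 5 and 6 the shares were 13.4% and 65.7%, and between 6 and 7 they were 7.44% and 65.2%. None of the 35 control-only regions with a lower fold of 7 or more lay within 1 kb of a start, so the strongest members were all distal. With equal numbers of peaks in every list, 15.2% of control-only, 36.6% of knockout-only and 65.3% of regions in all 4 libraries lay within 1 kb of a start. The nearest knockout peak was a median of 21.5 kb away. It lay within 1 kb of 279 control-only regions (12.4%) and over 10 kb away from 1489 (66.2%), the closest at 6 bases.

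The 20 strongest control-only regions, ranked by the lower control fold, had folds of 7.37 or more in both control libraries. The strongest was chr11:110880849-110881717, 86.3 kb from the start of Kcnj16, an inwardly rectifying potassium channel gene, with folds of 9.75 and 10.4 in control replicates 1 and 2, and its nearest knockout peak was 184122 bases away. A region inside Nudt9, an ADP-ribose pyrophosphatase gene, at chr5:104056041-104056498, had folds of 9.50 and 10.6. Regions at chr3:83299527-83300446 and chr3:83288162-83288917, both inside Dchs2, a gene of the cadherin superfamily, had folds of 8.91 and 10.0 and of 7.71 and 9.95. Both are nearest to the start of the predicted gene Gm10710, 170.3 and 158.9 kb away. The third-ranked region, at chr18:57837230-57837643 with folds of 9.80 and 8.94, lay 19 bases from a knockout peak. It was the only one of the 20 with a knockout peak within 1 kb.

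The other strong regions were spread over many kinds of genes. One between genes at chr4:105580932-105581698, 423.6 kb from Plpp3, whose product dephosphorylates lysophosphatidic acid and related lipids, had folds of 8.88 and 12. Another, 164.0 kb from Cxcl12, the chemokine ligand of CXCR4, at chr6:117332506-117333220, had folds of 8.02 and 8.77 with summits at the same base. A region 43.0 kb from Vldlr, a receptor of lipoproteins and reelin, had folds of 7.92 and 8.15. The region inside Smoc1, a secreted matricellular protein gene, at chr12:81123521-81124367, had folds of 7.42 and 8.76. Others lay 71.7 kb from Tslp, a cytokine gene, 297.4 kb from Adgra3, an adhesion receptor gene, and 1.18 kb from Mfn2, which encodes a mitofusin of mitochondrial fusion. The remaining named nearest genes were Actl7b, Zfp608, Fam124a, Opn5, Mrps27, Phf2, Aspa and 4921504E06Rik. Transcripts of Actl7b, Opn5, Kcnj16 and Aspa were below 0.5 CPM in every static and strain library, and Gm10710, Gm35751 and 4921504E06Rik had no count, so the nearest gene is in these cases a gene scarcely or not detected in the RNA-seq cells.

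Control-only regions at gene starts were weaker than the strongest distal ones. The 25 with the highest lower fold and a control summit within 1 kb of a start ranged in that lower fold from 6.83 down to 5.64. The highest were those of Zfp945, a zinc finger gene, with folds of 6.83 and 7.64 in control replicates 1 and 2, and of Rnf6 with 6.83 and 8.28. Both lay close to a knockout peak, at 47 and 25 bases. At D6Wsu163e the folds were 6.53 and 8.22 and the nearest knockout peak was 390012 bases away. The region at Adar, with its nearer summit 4 bases from the start, had folds of 6.24 and 7.77. At Slc25a24, a mitochondrial carrier gene, they were 5.94 and 8.38, at Limch1 5.98 and 7.66, and at Spdya 5.80 and 8.28. Others were at Coa3, needed for cytochrome oxidase assembly, Lipt2 of lipoate transfer, Eif3m of translation initiation, Ppp5c, a protein phosphatase gene, Gsto1, a glutathione transferase gene, and Epm2a, which encodes the glycogen phosphatase laforin. The other start regions of this set were at Slc7a12, Fnip1, Elac1, Zfp775, Rasgef1b, Lrba, 3110082I17Rik, Cndp2, Gpd1l, Ube2cbp, Ppp3r2 and Zfp229. For Slc7a12, Elac1 and Cndp2 no start was listed, and the region lay at a gene end that stood in for it. Those of Lrba, Fnip1, Gsto1, Zfp775, Eif3m and Gpd1l were within 200 bases of a knockout peak.

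Promoter windows in control-only regions were rich in GC and in SP/KLF matches, as were those of regions in all 4 libraries. Windows of 300 bases, from 250 before to 50 after a RefSeq start, were counted when at least 150 of their bases lay in a control-only region. This held for 120 windows of 115 genes, with a median GC content of 64.5% against 63.0% for 3553 windows in regions of all 4 libraries and 56.3% for all 21263 windows. GGGCGG (SP/KLF) was found on either strand in 70.8% of the control-only windows, against 72.2% of windows in all 4 libraries and 46.2% of all windows. CCGGAA (ETS) was found in 27.5%, 37.1% and 18.7% respectively. TGANTCA (AP-1) was in 5.83%, 4.28% and 6.99%, GGAATG (TEAD) in 14.2%, 10.3% and 13.6%, and TGTGGT (RUNX) in 8.33%, 11.1% and 14.97%. The NFI half-site TTGGCA was in 16.7%, 9.99% and 13.1%, and the E-box CANNTG in 60.8%, 55.6% and 69.0%. The SRF motif (CArG box) was in 0 of 120 windows, against 1.52% of either other set. With 120 windows the Wilson 95% interval of the ETS share was 20.3% to 36.1% and that of the NFI share 11.1% to 24.4%. Matches are descriptions of sequence and not bound sites, and the 1820 distal members were not searched because no genome sequence was used here.

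Some genes were nearest to several control-only regions. Assigned to the protein-coding gene with the nearest start, the 2249 regions named 1670 genes, of which 1288 had 1 region, 262 had 2 and 120 had 3 or more. Where no start was listed the nearer gene end was used, in 25.3% of the regions. Cd180, a Toll-like receptor homologue of B cells, and Cited2, a transcriptional co-regulator that binds CBP/p300, had 8 each, out of 11 regions that both control libraries shared. Jcad, which encodes a protein of cell junctions, had 7 of 9, and Thbs1, the gene of the matricellular protein thrombospondin 1, had 7 of 12. Tns3, whose product tensin 3 sits at integrin adhesions, also had 7 of 12. These 5 genes were chosen for their number of control-only regions, so these shares are descriptions, beside pooled shares of 22.6% of all shared regions and 36.5% of those over 1 kb from a start. Cd180 itself was at 0 to 0.028 CPM in the 6 RNA-seq libraries. Of its regions, 3 lay inside the neighbouring gene Mast4. Regions that shared no base were counted apart even where they nearly touched, as at chr10:16545333-16545652 and chr10:16545656-16546017 of Cited2. Cd180, Thbs1 and Jcad also had close neighbours, so counts per gene and lengths of runs include such pieces.

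**Figure D3:**
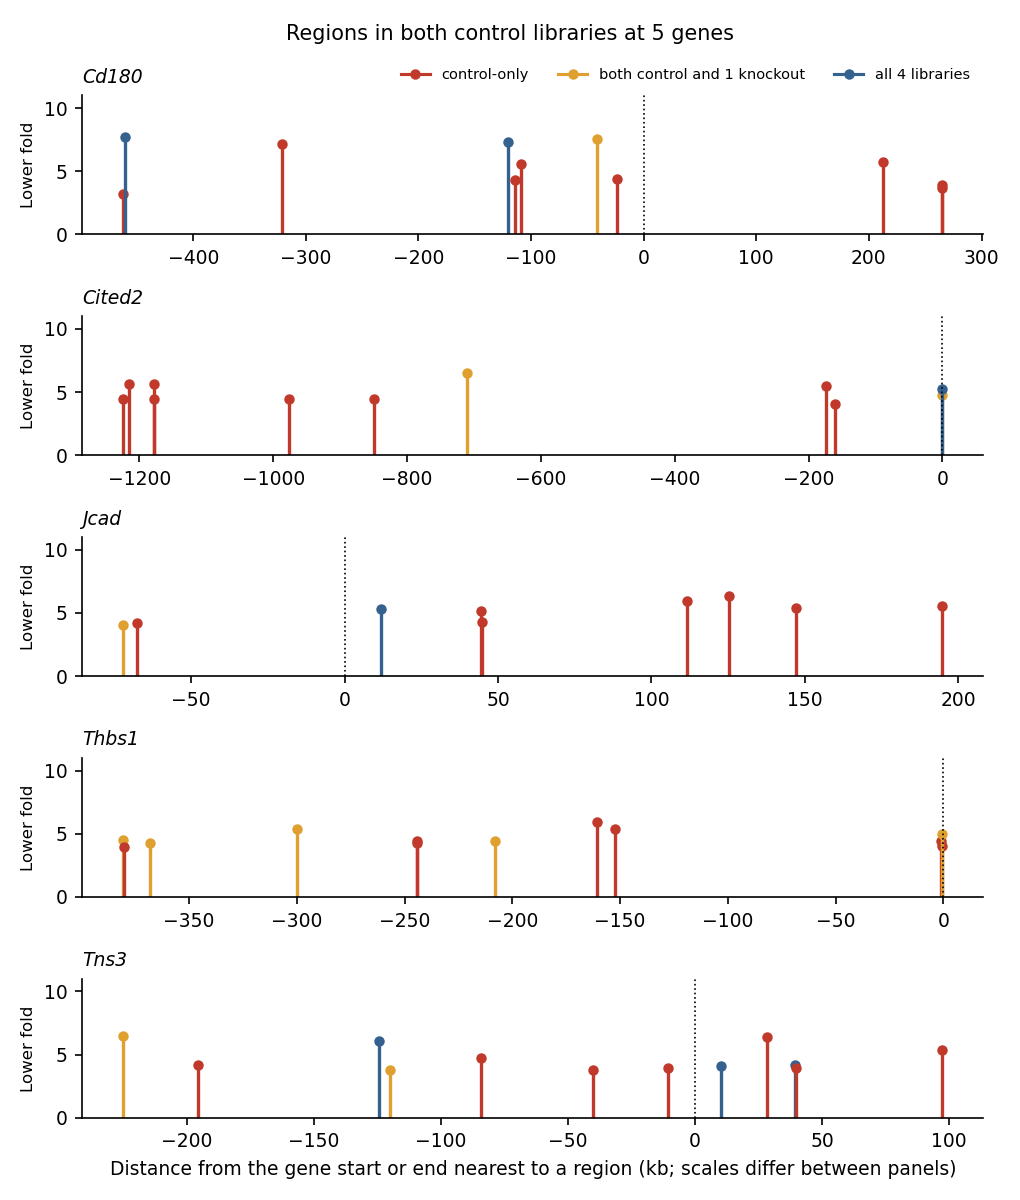
Every region present in both control libraries and assigned to the 5 genes with the most control-only regions, placed by its distance from the gene start or end nearest to a region (x axis, kb, with a different scale in each panel) and with the lower of the control fold enrichments as height (y axis). Control-only regions (red) outnumber the others at each gene, with lower folds between 3.20 and 7.13.

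The regions of these 5 genes differed in reach and in strength. Those of Cited2 lay 160.1 to 1224 kb from its start, all on its low-coordinate side, with lower folds of 4.05 to 5.64, and 6 of them formed an unbroken run of control-only regions over 375.7 kb. At Thbs1, 2 regions lay 0.65 and 1.08 kb from the gene end that stood in for a listed start, with folds of 4.51 and 4.03 and of 4.43 and 4.52 in control replicates 1 and 2, and both were within 1 kb of a knockout peak. The strongest of Thbs1 lay 160.4 kb away with folds of 6.12 and 5.95. No region of Thbs1 was present in all 4 libraries, and its transcript was at 745 to 1267 CPM in the static libraries. At Tns3 the strongest was 28.1 kb from the start with folds of 6.38 and 7.88, and at Cd180 320.6 kb away with 7.13 and 7.87. The 7 regions of Jcad lay inside the gene and on both sides of it, with lower folds of 4.19 to 6.37. In the lists of equal length 6 of the 7 at Jcad overlapped a control-only region, 3 of 7 at Thbs1, 3 of 7 at Tns3, 2 of 8 at Cd180 and 1 of 8 at Cited2.

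Among the regions that the control libraries shared, members stood alone or in short runs. Ordered along each chromosome, the control-only regions formed 1610 unbroken runs, and 1165 runs (72.4%) held a single region. A run of 4 or more occurred 44 times. The longest, of 7 regions over 195.3 kb on chromosome 18, spanned Jcad and Svil, the gene of the actin-binding protein supervillin. Runs of 5 included those at Sp8, at Inhba and Sugct, at Cd180 and Mast4, and at Rasgrp1. Others spanned 195.8 kb on chromosome 18, from Zfp474 to Gm51263, and 4755 kb on chromosome 3, from Pag1 to Slc7a12.

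The control-only share differed between chromosomes. Among the regions present in both control libraries, 22.6% were control-only over the 15 chromosomes (2249 of 9944), with a median of 21.6%. The lowest share was 16.7% on chromosome 19 and the highest 29.7% on chromosome 3, followed by 28.4% on chromosome 18 and 26.5% on chromosome 6. The remaining 11 chromosomes lay between 20.4% and 24.9%. With equal numbers of peaks chromosome 18 was highest at 24.8%, chromosome 3 was at 18.9% and chromosome 19 was lowest at 12.1%. On the chromosomes left out by the rule the shares were 33.2% on chromosome 1, 32.5% on chromosome 15, 19.2% on chromosome 8 and 17.1% on chromosome 16. Whether the number of chromosome copies differs between the control and knockout cells was not tested.

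**Figure D4:**
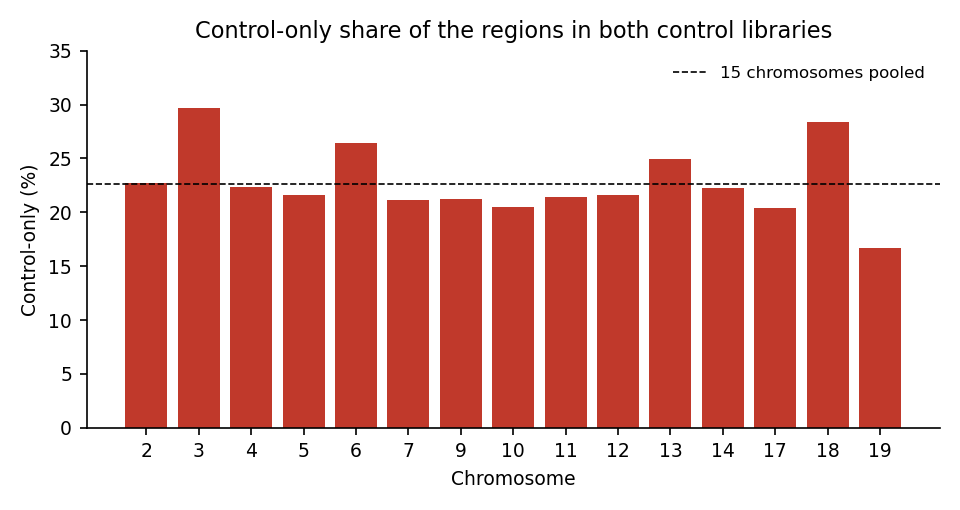
Bars give the percentage of the regions found in both control libraries that were control-only (y axis) on each of the 15 chromosomes used (x axis), with the pooled share as a dashed line. Chromosomes 3 and 18 stand highest, at 29.7% and 28.4%, and chromosome 19 lowest, at 16.7%.

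Gene lists of mesenchymal biology were set beside the pooled shares of 22.6% of all shared regions and 36.5% of those over 1 kb from a start. Most shared regions of every list lay over 1 kb from a start, so the second is the closer comparison, and no test of these shares was made. Genes on chromosomes that the rule leaves out could have no region here. Of the 20 mechanically gated channel genes listed, 16 were found by symbol on the chromosomes used. For BMP and TGF-β genes, which signal in bone and matrix formation, 33 of 83 shared regions were control-only (39.8%), and 30 of 65 among those over 1 kb from a start (46.2%). Inhba, the gene of an activin subunit, and Bmp4, the gene of a bone morphogenetic ligand, had the most in the list, 5 each out of 10 and 9 shared regions. The strongest were near receptors and an inhibitor. A region 35.9 kb from Tgfbr3 had folds of 6.70 and 6.77 in control replicates 1 and 2, one 24.1 kb from the inhibitory Smad7 had 6.31 and 7.28, one inside Acvr1 had 5.78 and 7.83 and one inside Tgfbr2 had 5.71 and 6.35. In lists of equal length 18 of the 33 overlapped a control-only region.

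Guidance molecules, secreted and membrane cues that steer migrating cells and axons, had 15 control-only regions among 31 shared ones (48.4%), and 12 of 25 over 1 kb from a start (48.0%). A region 61.2 kb from Slit2, a secreted ligand, had folds of 7.13 and 9.28, and one 55.2 kb from Slit3 had 6.11 and 6.14. Integrin and focal adhesion genes had 19 of 49 (38.8%), and 18 of 40 far from a start (45.0%). Of these, 7 belonged to Tns3, and the strongest lay inside the integrin subunit gene Itga8 with folds of 6.55 and 7.23. Lists of equal length kept fewer of both groups, 6 of the 15 guidance regions and 6 of the 19 integrin and adhesion regions.

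Matrix, patterning and Wnt lists had distal shares close to the pooled 36.5%. Fibrillar and matricellular matrix genes had 20 of 60 shared regions (33.3%) and 18 of 50 far from a start (36.0%). The strongest lay inside Col12a1, a collagen gene, with folds of 7.42 and 7.29, followed by one 382.5 kb from Col12a1 with 6.53 and 8.33. The next lay 5.63 kb from Lox, the lysyl oxidase that crosslinks collagen, with 6.07 and 6.82. Hox and mesenchymal patterning genes had 20 of 59 (33.9%) and 14 of 41 far (34.1%), with a region over 1 Mb from Zeb2 at 6.24 and 8.07 and regions inside Meis1 and Foxp1, both transcription factor genes. The Wnt list had 15 of 47 (31.9%) and 13 of 36 far (36.1%), with the strongest 227.1 kb from the receptor gene Fzd1 at 6.91 and 7.88 and another 66.2 kb from Ctnnb1, which encodes β-catenin, at 5.20 and 5.15. The list holds Tcf4 by its symbol, which names an E-protein gene. The Wnt effector called TCF-4 is encoded by Tcf7l2, also in the list. Tcf4 gave 3 of the 15 control-only and 7 of the 47 shared regions.

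Other lists had fewer members, and over 1 kb from a start most of their shares were below the pooled 36.5%. YAP/TAZ-TEAD and SRF genes had 12 of 46 (26.1%) and 10 of 31 far (32.3%), among them regions inside Tead4 and 58.6 kb from the actinin gene Actn1, with folds of 5.20 and 5.51 and of 4.75 and 6.65. AP-1 and immediate-early genes had 7 of 43 (16.3%) and 6 of 33 far (18.2%), of which 4 were assigned to Klf6, which also had 9 regions in all 4 libraries. Adipocyte genes had 6 of 18 (33.3%) and 6 of 14 far (42.9%), namely 4 of Ebf1 and 2 of Pparg, the master regulator of fat cells, and a region inside Pparg had folds of 5.34 and 8.07. Notch and Hedgehog genes had 7 of 30 (23.3%) and 5 of 22 far (22.7%), 4 of them near the Notch ligand gene Jag1. Estrogen and other nuclear receptors had 7 of 31 (22.6%) and 6 of 26 far (23.1%), 3 of them near Nr2f2. Osteoblast lineage genes had 4 of 19 (21.1%) and 3 of 15 far (20%), cartilage and tendon genes 2 of 13 (15.4%) and 2 of 11 far (18.2%), and mechanically gated channels 1 of 9 (11.1%) and 1 of 7 far (14.3%). The last was 28.9 kb from Piezo2, the paralog of the knocked-out gene, with folds of 4.65 and 5.39, and another single region lay 429.7 kb from Sox9, the regulator of cartilage, with 6.87 and 8.01.

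The RNA-seq libraries, which the rule did not use, gave the levels of the assigned genes and their response to strain. Totals were 36150738 to 41024689 counts per library. Of 13 fibroblast markers 12 were detected well enough to be tested and their summed level was 63950 to 65610 CPM in static libraries, whereas 8 blood markers summed to 12.1 to 15.3 CPM, 10 epithelial ones to 27.7 to 40.5, 8 endothelial ones to 3.10 to 4.07, 8 neural ones to 41.3 to 46.8 and 9 skeletal muscle ones to 99.2 to 116.5. At 0 in all static libraries were 5 epithelial, 2 endothelial, 5 blood, 3 neural and 3 skeletal muscle markers, among them Epcam, Cdh5, Ptprc, Sox10 and Myod1. Detected well enough to be tested were 3 epithelial, 3 endothelial, 3 blood, 4 neural and 5 skeletal muscle markers. Fibroblast markers were nearest to 7 control-only regions, endothelial ones to 2 (Emcn and Vwf) and a skeletal muscle one, Mef2c, to 1. Of the 1670 assigned genes 1661 were in the count table and 1395 passed the filter on low counts (84.0%), against 59.7% of protein-coding genes on the same chromosomes and 93.8% of genes assigned to regions in all 4 libraries. Fewer cells expressing a gene and less RNA per cell cannot be told apart in these bulk samples.

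Under cyclic strain 148 of the 1395 tested genes (10.6%) were higher and 130 (9.32%) lower with edgeR's quasi-likelihood test at a Benjamini-Hochberg adjusted p under 0.05. Of all 15335 genes tested 5.94% were higher and 7.39% lower. Protein-coding genes on the same chromosomes gave 6.47% and 7.94%, and genes assigned to regions in all 4 libraries 6.54% and 6.36%. The median log2 fold change of the assigned genes was 0.05, against 0.00 over all genes tested. It was 0.04 for genes assigned to regions in all 4 libraries and 0.01 for protein-coding genes on the same chromosomes. These counts depended on single libraries. Higher genes numbered 57 without static replicate 1, 60 without strain replicate 2 and 62 without strain replicate 3, and lower genes 72 without static replicate 1 and 68 without strain replicate 3, when calls over all genes also fell, to 369, 420 and 404 higher and, without static replicate 1 and strain replicate 3, 610 and 577 lower. Scaling by library size alone gave 181 higher and 103 lower, so that 63.7% of the calls were higher against 53.2% with TMM scaling. Over all genes tested the share of higher calls moved alike, to 55.6% from 44.5% with TMM scaling. The share of higher genes did not increase with the number of regions, at 10.4% for genes with 1 region, 11.6% with 2 and 10.5% with 3 or more.

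Kitl, the gene of the ligand of the receptor KIT, combined several control-only regions with a strain response. Of its 5 shared regions 4 were control-only, and one of them overlapped its start with folds of 5.05 and 5.52 in control replicates 1 and 2. The others lay 64.0, 105.3 and 145.4 kb away with lower folds of 4.45 to 5.64. Its level was 14.8, 16.2 and 9.90 CPM in the static and 37.1, 26.2 and 27.9 CPM in the strain libraries. The groups did not overlap, and the log2 fold change was 1.16 (SE 0.19, edgeR adjusted p = 0.00376).

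Of the 10 assigned genes with the largest rise under strain, Slc22a23 moved most. Slc22a23, a gene of the organic ion transporter family, was at 2.77, 3.34 and 2.08 CPM in static and 11.8, 11.5 and 11.1 CPM in strain libraries, a log2 fold change of 2.07 (SE 0.18, edgeR adjusted p = 9.96e-05). Abcc4, an exporter of cyclic nucleotides and drugs, was at 19.3, 20.3 and 15.9 CPM against 57.2, 49.8 and 47.8 CPM (log2 fold change 1.48, SE 0.13, edgeR adjusted p = 8.62e-05). Its region overlapped the start, with folds of 3.63 and 4.91. Ccl2, a chemokine that attracts monocytes, was at 63.9, 62.4 and 83.8 CPM against 131.6, 215 and 201 CPM (log2 fold change 1.38, SE 0.18, edgeR adjusted p = 0.00109), and its region lay 23.6 kb away. In none of the 3 did the groups overlap. Vcan, the gene of the proteoglycan versican, rose by a log2 fold change of 1.32, Cyp1b1, a cytochrome P450 that metabolizes estrogens, by 1.32, Insig1 of sterol sensing by 1.14, the kinase gene Sgk1 by 1.01, Cobll1 by 0.96 and Zbtb38 by 0.93. The call of Zbtb38 was lost without static replicate 1 or 3 or without strain replicate 2 or 3, with an adjusted p of up to 0.129.

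Of the 10 with the largest fall, Penk moved most. Penk, which encodes the precursor of enkephalin peptides, was at 173, 164 and 214 CPM in static and 26.7, 34.3 and 23.1 CPM in strain libraries, a log2 fold change of −2.71 (SE 0.16, edgeR adjusted p = 7.92e-06). Its region, 41.5 kb away with folds of 3.93 and 4.38, lay 32 bases from a knockout peak. Dkk2, a secreted modulator of Wnt signalling, was at 7.50, 8.09 and 8.11 CPM against 1.56, 1.18 and 1.07 CPM (log2 fold change −2.63, SE 0.20, edgeR adjusted p = 3.99e-05), with a region 241.8 kb away. Igf1, the growth factor, was at 72.4, 71.1 and 75.7 CPM against 32.5, 33.9 and 29.9 CPM (log2 fold change −1.19, SE 0.10, edgeR adjusted p = 7.36e-05), with a region inside the gene at folds of 5.83 and 4.83. The groups did not overlap for any of the 3. Daam2, a formin gene of Wnt signalling, fell by 1.24 on the log2 scale and had a control-only region at its start with folds of 4.25 and 4.80. Smoc1, the one gene of this set that is also among the 20 strongest regions, fell by 1.37, from 5.85, 5.14 and 7.94 to 1.75, 2.54 and 3.01 CPM. The log2 fold change was −2.11 for Amz1, −1.41 for Cdh17, −1.30 for Col15a1, −1.24 for Nrep and −1.21 for Celf2, and all 5 passed the test.

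**Figure D5:**
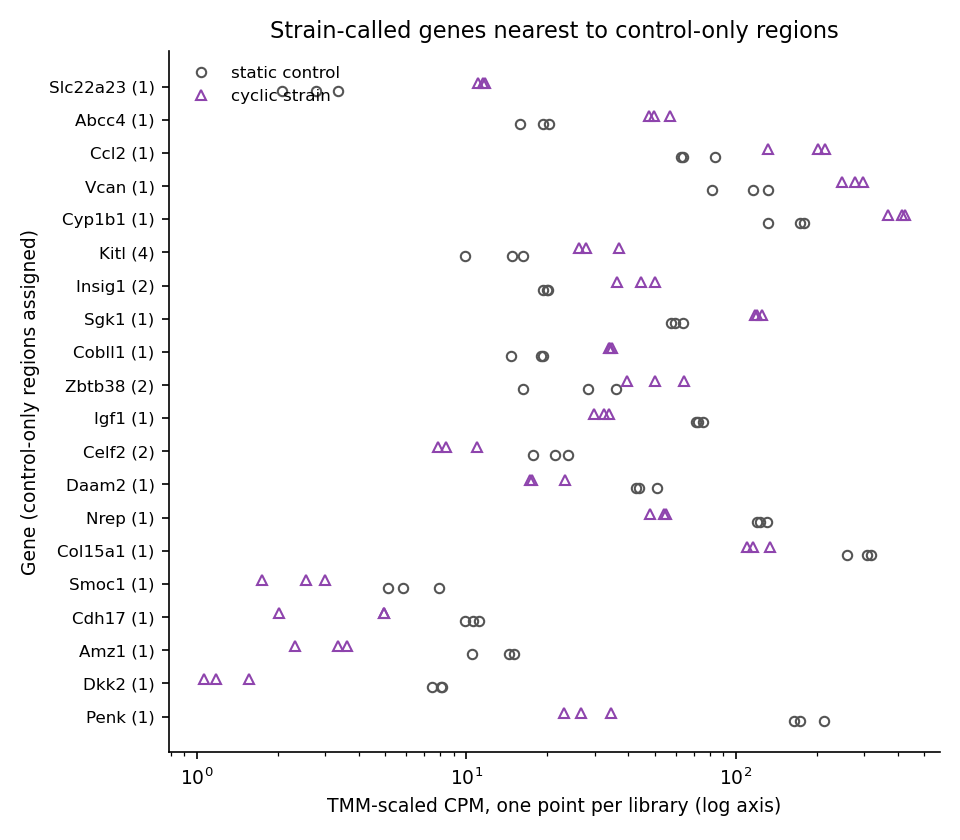
TMM-scaled CPM (x axis, log axis) of the 20 assigned genes with the largest called rise or fall under strain (y axis, with the number of control-only regions in brackets), one point per library for 3 static and 3 strain libraries. The groups do not overlap for any of the 20 genes, from Penk with a log2 fold change of −2.71 to Slc22a23 with 2.07.

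Of the genes with the most control-only regions, Cited2, Thbs1, Tns3 and Jcad did not pass the test under strain, and Cd180 was too low to be tested. Some genes nearest to the strongest regions did pass. Of all genes tested 5.94% were called higher and 7.39% lower, so most genes do not pass. Cited2 was at 249.4, 257 and 246 CPM in static and 197, 222 and 234 CPM in strain libraries (log2 fold change −0.20, SE 0.10, edgeR adjusted p = 0.197). Thbs1 was at 1045, 1267 and 745 CPM against 566, 1162 and 832 CPM (log2 fold change −0.26, SE 0.25, edgeR adjusted p = 0.521), and Tns3 at 253, 282 and 189 CPM against 238, 341 and 288 CPM (log2 fold change 0.26, SE 0.17, edgeR adjusted p = 0.323), both with overlapping groups. Jcad, listed in the count table under the synonym 9430020K01Rik, had a log2 fold change of 0.10 (edgeR adjusted p = 0.734). Among genes nearest to the 20 strongest regions, Plpp3 rose by a log2 fold change of 0.60 and Adgra3 by 0.48, and Vldlr fell by 0.54 and Smoc1 as above. The calls of Plpp3 and Vldlr were lost without static replicate 1 and that of Adgra3 without static replicate 1 or strain replicate 2 or 3. Cxcl12 was at 1724, 1790 and 1676 CPM against 1364, 1718 and 1436 CPM and did not pass (edgeR adjusted p = 0.261). Nor did Nudt9, Zfp608, Fam124a, Mrps27, Phf2, Mfn2 or Tslp, and the remaining nearest genes were too low to be tested. Of the 25 start genes, Adar and Cndp2 were called higher and Epm2a lower, with log2 fold changes of 0.60, 0.55 and −1.99. Cndp2 is in this set by a gene end, as it had no listed start. Adar lost its call in 5 of the 6 fits that left out a library and Cndp2 in 2.

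By list, the strain response of genes with control-only regions was as follows. The whole lists set beside them were not limited to the chromosomes used, so they include genes that could have no control-only region here. All 4 osteoblast genes with a region, Col1a2, Omd, Phospho1 and Sparc, were lower. Omd, the gene of osteomodulin, fell by 1.18 on the log2 scale, from 38.3, 42.0 and 39.3 to 21.9, 14.6 and 16.2 CPM, and Sparc, which encodes osteonectin, fell by 0.70. Of the whole list of 22 tested, 12 were lower and 2 higher, with a median of −0.62. In the matrix list 5 of 11 genes with a region were lower (Col16a1, Col1a2, Col5a1, Col6a1 and Tnc) and Vcan was higher, against 16 lower and 2 higher of 32 tested. BMP and TGF-β genes went both ways, Tgfbr1, Tgfbr3 and Ltbp2 higher and Bmp4, Smad6 and Tgfb3 lower among 16, against 6 higher and 8 lower of 35 tested. In the Wnt list Dkk2, Tcf4 and Wnt11 were lower among 10, against 10 lower and 2 higher of 35. Tcf4, the E-protein gene counted in this list by its symbol, lost its call in each of the 6 fits that left out a library.

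In the remaining lists few genes with a region were called. Of the 11 guidance genes with a region 10 were tested. Sema3c, Slit2 and Slit3 were higher and Efna5 lower, against 6 higher and 3 lower of 31 tested in the whole list. Slit2 and Slit3 lost their calls in 4 and 5 of the 6 fits that left out a library. Of 11 patterning genes Tbx18 was higher and Twist1 and Nfib lower, against 2 and 9 of 43. Of 9 YAP/TAZ-TEAD and SRF genes Axl and Crim1 were higher and the tropomyosin genes Tpm1 and Tpm2 lower, against 2 and 4 of 28. Itga8 was the one integrin and adhesion gene of 10 that was called, with a log2 fold change of −1.20, against 1 higher and 4 lower of 26. Crim1 lost its call in 3 fits that left out a library, Itga8 in 4 and Tgfbr3 in 3. Mkx of the cartilage and tendon list was higher among 2, against 1 higher and 2 lower of 12, and Thra lower among the 4 tested estrogen and nuclear receptor genes, against 0 and 4 of 24. No gene with a region was called in the adipocyte (2 genes; 2 higher and 1 lower of 12 in the whole list), AP-1 and immediate-early (4; 2 and 1 of 22), Notch and Hedgehog (4; 0 and 4 of 15) or mechanically gated channel lists (1; 2 and 3 of 16).

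A few control-only regions held or touched a miRNA hairpin. The mature sequences of 3 that lay inside a region are shown with the seed, bases 2 to 8, in capitals, from RefSeq on GRCm38.p6.
mmu-miR-3154 (chr2:32318317-32318338, plus strand): cAGAAGGGgagucgggagcgga
mmu-miR-5122 (chr4:133369784-133369803, plus strand): cCGCGGGAcccggggcugug
mmu-miR-5131 (chr14:45657972-45657994, minus strand): cGGCGCCCcacggagccccgagc
Their regions were weak, with lower control folds of 4.10, 4.95 and 4.45, and the 3 seeds differ from each other. The hairpins of Mir199b, Mir219a-1 and Mir219c overlapped a region, with none of their listed mature sequences wholly inside it, at lower folds of 4.10, 3.75 and 3.75. Mir22, Mir574, Mir7662 and Mir5135 lay 195 to 872 bases from a region. Mature miRNAs were not measured.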

How the data were processed

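ATAC-seq peaks were deposited by the authors as a separate list for each library, without pooling of replicates. The submitters' processing notes name mm10, Trim Galore 0.6.5, Bowtie2 2.4.2 and MACS2 for these lists, and the file names mark them as freed of blacklisted regions. Version and threshold of MACS2, handling of duplicates and any shift of reads to the Tn5 cut were not given in the sources used here. Each deposited peak has the authors' fold enrichment, a ratio to local background, and their −log10 p and −log10 q, which served to rank, filter and describe peaks and for nothing else. For RNA-seq the authors deposited read counts per gene symbol, made with STAR and HTSeq on mm10 per the submitters' processing notes, which also name DESeq2. Strand and multi-mapping settings were not given in the sources used here, so values of overlapping or duplicated genes are uncertain.

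Peaks were merged at an overlap of at least 1 bp with Python 3.11.15. Regions were assigned to the protein-coding gene with the nearest start among 21887 RefSeq genes of GRCm38.p6, of which 17492 had a listed start and 4395, those of chromosome 18 among them, were placed by both gene ends. Of the 1670 assigned genes 54 matched the count table by a synonym and 9 did not match. Strain and static libraries were compared with edgeR 4.0.16 (TMM, filterByExpr, glmQLFit and glmQLFTest, two-sided) over 15335 genes, with Benjamini-Hochberg adjusted p under 0.05, and CPM are counts scaled by TMM to a common library size. Separate cultures are not stated for the replicates, and p-values therefore reflect only how far these libraries differ, which can be technical. On data simulated for strain against static over 15335 genes, 92.5% of 200 genes with a log2 change of 1 were recovered and 7.04% of calls were false. The simulation used a fixed dispersion not estimated from these libraries and changed only genes above a set level. It added no deviation shared by the genes of a library, so these rates check the code and need not hold for the real libraries. The merging was checked on simulated peaks.

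Regions named in the text were the 20 with the highest lower control fold, the 25 strongest with a control summit within 1 kb of a start, up to 4 examples for each of 14 gene lists and the 5 genes with most regions. Genes named for strain were the 10 largest rises and falls among called assigned genes whose average log2 CPM reached 2, leaving out predicted and clone-named models. Other genes were named as the called members of a list or as genes with the most regions. The members and lists were chosen with earlier results of these data known. Motifs were searched only in RefSeq promoter windows.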

Additional observations from a re-analysis of the deposited data

How the results depend on the processing

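The count of control-only regions was 2249 with the peaks as deposited, 1143 with equal numbers of peaks and 2921 to 9267 when a library was left out, the highest without control replicate 1. It stayed within 1.5 times of 2249 for a −log10 q of 5 or more (1973), a shared-length rule (2376), no knockout peak within 1 kb (1970) and all autosomes with chromosome X (3096). The share within 1 kb of a start was 19.1%, and 15.2% with equal numbers of peaks, 14.7% with no knockout peak within 1 kb, 25.7% at a distance of 5 kb, 15.2% with listed starts alone (chosen after seeing the data) and 20.6% to 27.8% when a library was left out. The control-only share of regions in both control libraries was 22.6%, and 15.2% with equal numbers and 19.8% with no knockout peak within 1 kb. It was 32.2% without knockout replicate 1 and 29.2% without knockout replicate 2. Without control replicate 1 or 2 it was 47.2% or 29.4%, but of the regions in the remaining control library, which is an unlike measure. The E-box share of promoter windows was 72.55% (37 of 51) with equal numbers of peaks, and the NFI share was 10.4% to 13.4% when a library was left out. Among the 15 chromosomes used, chromosome 19 had the lowest share in every setting run, and the highest was on chromosome 3 or 18. Motif windows of 100 bases were not run, as they need a genome.

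The count of assigned genes higher under strain was 148, and 57 to 172 when a library was left out, 240 with the replicate number as a block and 72 with every gene within 10 kb of a region. The count lower was 130, and 68 to 123 when a library was left out, 177 with the block and 69 within 10 kb. DESeq2's Wald test gave 205 and 172. Calls over all genes tested moved as well, from 911 higher and 1134 lower to 1557 and 1619 with the block. They were 1320 and 1540 with DESeq2's test. Same-numbered static and strain libraries had correlations of 0.03, 0.21 and 0.09 in their deviations from the group means. For each static replicate this was the highest of its correlations with the strain libraries. Strain replicate 1 correlated better with static replicate 3 than with static replicate 1. The labels do not say that the numbers pair the cultures, so the main fit did not take them as pairs. Whether they are pairs was not tested. The block was fitted for the strain comparison alone, since the ATAC-seq results come from peak lists with no test. Of the single-gene values under the alternatives 953 kept their direction and call, 42 kept the direction and lost the call, and 22 gained the call. Another 39 changed sign, in 20 genes that passed the test neither as reported nor in those fits. With a library left out, the log2 fold change ran from −0.065 to 0.21 for 9430020K01Rik, −0.19 to 0.081 for Coa3, −0.25 to 0.14 for Col12a1, −0.025 to 0.094 for Ebf1 and −0.037 to 0.089 for Foxp1. It ran from −0.042 to 0.21 for Fzd1, −0.096 to 0.17 for Gpd1l, −0.17 to 0.084 for Gsto1, −0.025 to 0.39 for Lipt2 and −0.17 to 0.049 for Meis1. The range was −0.0096 to 0.17 for Mrps27, −0.37 to 0.017 for Piezo2, −0.18 to 0.019 for Pparg, −0.16 to 0.42 for Rasgef1b and −0.10 to 0.070 for Rbpj. Last, it was −0.13 to 0.0024 for Smad7, −0.027 to 0.86 for Spdya, −0.032 to 0.15 for Tgfbr2, −0.25 to 0.12 for Zfp229 and −0.13 to 0.18 for Zfp608. Scaling by library size alone gave 0.02 for Col12a1 and 0.041 for Gsto1. The causes of these changes were not tested. Peak lists give no read depth, so an uncalled region may be open below the threshold.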

Other observations

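On chromosome X, which the rule leaves out, 110 of the 224 regions present in both control libraries were control-only (49.1%), against 16.7% to 29.7% on the 15 chromosomes used. Of 84 regions present in both knockout libraries there, 2 were knockout-only (2.38%). Chromosome 16 had the largest knockout-only share, 10.4% of 422 regions. These values were not tested.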
